A study of Homo sapiens with 18 samples.

Results

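The comparison described here is the response of mock-transfected endothelial cells to poly(I:C), a synthetic double-stranded RNA that stands in for viral RNA. Its members were chosen by the labels: the 3 Mock libraries taken at 24 h with poly(I:C) and the 3 Mock libraries taken at 0 h, 6 of the 18 RNA sequencing libraries of the series. The cells were EA.hy926, a human line made by fusing umbilical vein endothelial cells with the lung epithelial line A549, so it carries genomes of both parents and is 1 line. Mock cells received the lipofection reagent and no siRNA, the siNT cells 10 nM of a non-targeting siRNA and the siELMO1 cells 10 nM of siRNA against ELMO1. All cells were seeded in 10% FBS and starved in 0.5% FBS, and transfection preceded the first harvest (0 h) by 48 h. The later harvest followed 24 h of poly(I:C) at 1 μg/ml, and no untreated culture of that later time was among the samples. The effect of poly(I:C) and of the further 24 h in low serum cannot be told apart in these data. The study's methods call the 3 libraries of a group biological replicates, and the labels do not say whether they came from separate cultures, so the p-values measure the spread between these libraries.

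Double-stranded RNA is sensed by Toll-like receptor 3 in endosomes and by the helicases RIG-I and MDA5 in the cytosol. The sensors act through the adaptors TICAM1 and MAVS on IRF3 and NF-kB, which switch on type I and type III interferons, chemokines and cytokines. Secreted interferon then acts back on the cells through JAK kinases and a complex that holds STAT2 and IRF9, which binds interferon-stimulated response elements and turns on a large set of antiviral genes. In endothelium the same signals raise adhesion molecules and change the balance of clotting.

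The promoters of several genes that rose carry letters matching these 2 kinds of binding site, and a few are shown because the results below turn on their genes. Each window comes from RefSeq (GRCh38.p14), lies within the 250 bases before the start that RefSeq gives, which can differ from the gene bounds given below, and has up to 20 bases on either side of the matches. Capitals mark matches to GAAANNGAA, the core of the interferon-stimulated response element, or to the NF-kB letters GGGANTTCC and GGGANTTTC, searched on both strands, so that a match on the other strand reads as its complement. Of the genes first shown for the response element, ISG15 (ubiquitin-like modifier, chr1:1013364-1013424, plus strand) holds 3 overlapping matches, and IFIT1 (chr10:89392488-89392549, plus strand), IFIT3 (chr10:89327822-89327904, plus strand) and the tetherin gene BST2 (chr19:17405726-17405780, minus strand) hold 2 each. CXCL1 (chr4:73869294-73869342, plus strand), IL6 (chr7:22727107-22727155, plus strand) and BIRC3 (chr11:102317265-102317313, plus strand) hold 1 NF-kB match each and TNFAIP3 (chr6:137867173-137867232, plus strand) holds 2. TAP1 (chr6:32853748-32853857, minus strand), B2M (chr15:44711353-44711421, plus strand), CXCL10 (chr4:76023591-76023738, minus strand) and GBP1 (chr1:89065242-89065354, minus strand) hold both kinds.
ISG15: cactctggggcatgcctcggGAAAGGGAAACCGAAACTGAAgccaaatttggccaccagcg
IFIT1: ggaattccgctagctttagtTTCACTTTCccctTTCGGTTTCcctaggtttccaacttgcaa
IFIT3: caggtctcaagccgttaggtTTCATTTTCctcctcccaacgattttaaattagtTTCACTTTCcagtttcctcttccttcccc
BST2: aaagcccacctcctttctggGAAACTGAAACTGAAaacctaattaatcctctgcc
CXCL1: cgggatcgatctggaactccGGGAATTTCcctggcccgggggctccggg
IL6: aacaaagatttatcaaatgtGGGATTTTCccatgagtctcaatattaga
BIRC3: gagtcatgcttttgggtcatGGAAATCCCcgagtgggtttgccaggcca
TNFAIP3: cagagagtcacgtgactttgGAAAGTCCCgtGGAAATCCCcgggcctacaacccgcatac
TAP1: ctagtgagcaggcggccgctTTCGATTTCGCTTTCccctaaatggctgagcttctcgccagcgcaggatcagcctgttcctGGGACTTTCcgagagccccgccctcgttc
B2M: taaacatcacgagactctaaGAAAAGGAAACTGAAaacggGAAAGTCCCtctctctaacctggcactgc
CXCL10: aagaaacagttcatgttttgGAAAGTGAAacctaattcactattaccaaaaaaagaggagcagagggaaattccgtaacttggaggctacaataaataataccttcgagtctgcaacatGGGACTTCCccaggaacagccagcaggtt
GBP1: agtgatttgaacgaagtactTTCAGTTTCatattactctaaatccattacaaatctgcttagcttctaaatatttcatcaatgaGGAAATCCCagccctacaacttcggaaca

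Over the promoters of 10007 tested protein-coding genes, from 250 bases before to 50 bases after the start, 6.74% held the response element letters, 3.49% the NF-kB letters and 0.31% both. A comparison of these shares between rising and falling genes is void, because only 77.5% of the rising and 76.9% of the falling protein-coding genes have a promoter in the table. A match describes letters and not binding.

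Of 15167 genes tested, 1304 (8.6%) were higher and 898 (5.92%) were lower at 24 h by more than 2-fold with an adjusted p under 0.05 (edgeR quasi-likelihood test). By adjusted p alone 4655 genes (30.7%) were higher and 4489 (29.6%) lower, and the median log2 fold change over all tested genes was 0.01. These shares over all tested genes are the background for the counts given below for lists of genes. Of the changes over 2-fold, 59.2% were rises, and this share was 49.8% (1135 rises and 1144 falls) when libraries were scaled by their totals instead of TMM factors, which moved every gene by a median of −0.12 on the log2 scale. The rises reached further than the falls: 333 genes rose and 24 fell by more than 8-fold, and 117 rose and 6 fell by more than 64-fold. The genes that rose over 2-fold took 3.83 to 3.88% of the CPM (counts scaled to library size and TMM factor) of each library at 0 h and 16.1 to 16.9% at 24 h, and those that fell took 3.8 to 3.85% and then 1.51 to 1.59%. Of the 2202 genes past both thresholds, 2168 had no overlap between the groups, against 69.3% of all tested genes.

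The 6 libraries held 53.8 to 73.9 M estimated counts, and pairs of libraries of 1 group differed with an SD of 0.146 to 0.204 on the log2 scale across genes. The share of counts from mitochondrially encoded genes was 1.31 to 1.44% at 0 h and 1.74 to 1.8% at 24 h, and that of ribosomal protein genes 4.73 to 4.81% and 3.91 to 4.28%. With the mitochondrially encoded genes left out 1266 genes rose and 965 fell over 2-fold, against 1304 and 898, and the part of the ribosomal share was not tested. A count of 0 allows up to 3 counts, or 0.0384 to 0.0571 CPM in these libraries, and a gene at or under that limit in all 3 libraries of 0 h has its rise given as a lower bound. Such limits cover counting error only. Of the rises over 2-fold, 74 were of genes at that limit at 0 h, so that the low-count filter admitted them through the libraries in which they were high. In bulk RNA, fewer cells of a kind and less RNA per cell cannot be told apart. The endothelial label was checked with marker genes: 20 of 22 endothelial genes passed the filter and summed to 2830 to 2995 CPM at 0 h, while EMCN and CLDN5 did not pass.

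**Figure D1:**
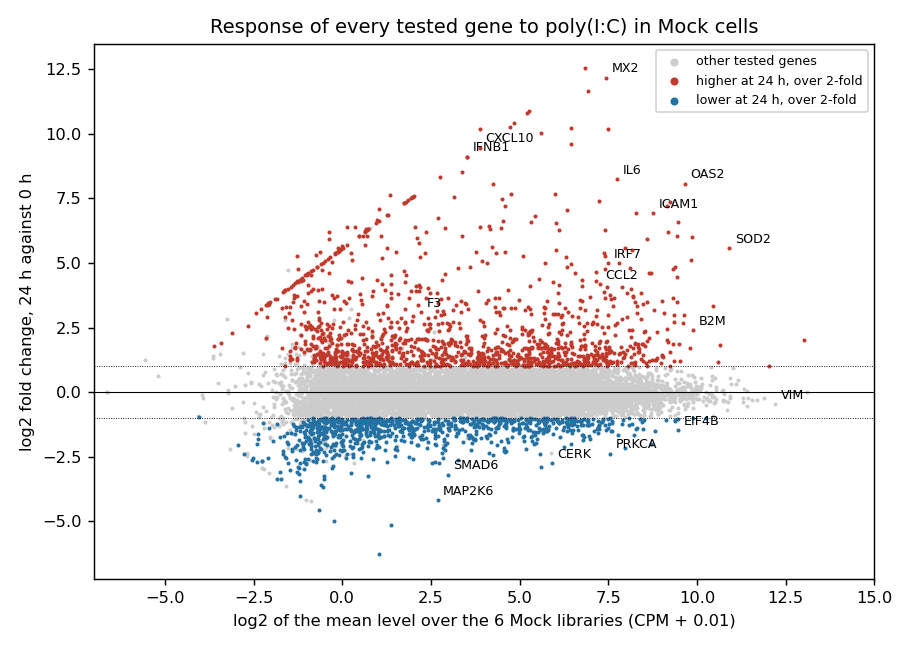
Each point is 1 of the 15167 tested genes, with the log2 of its mean level over the 6 Mock libraries on the x axis and its log2 fold change at 24 h against 0 h on the y axis. Red and blue points passed an adjusted p of 0.05 and a 2-fold change, and genes at the limit of detection in a group are drawn at their bound. Of the 1304 rises 333 exceed 8-fold, against 24 of the 898 falls.

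The receptor and helicase sensors of double-stranded RNA rose. Transcript levels of TLR3 (ENSG00000164342.14, chromosome 4 from 186068911 to 186088073), the endosomal receptor, were 16.1, 18.7 and 16.7 CPM at 0 h and 145, 136 and 162 CPM at 24 h, an 8.61-fold rise (log2 fold change 3.11 ± 0.12 SE, adjusted p = 1.8e-13). RIGI (ENSG00000107201.11, chromosome 9 from 32455302 to 32526208), which encodes RIG-I, went from 47.9, 45.2 and 43.9 to 1220, 1150 and 1350 CPM, 27.2-fold. IFIH1 (ENSG00000115267.10, chromosome 2 from 162267074 to 162318684), which encodes MDA5, went from 7.84, 7.23 and 8.10 to 309, 316 and 353 CPM, 42.2-fold. In all 3 genes the lowest library of 24 h stood several-fold above the highest library of 0 h. DHX58, the regulatory helicase LGP2, rose 114-fold from 0.745 ± 0.0792 to 85.2 ± 8.60 CPM (mean ± SD, n = 3), and ZNFX1, an RNA helicase on mitochondria, rose 6.42-fold from 210.0 ± 3.26 to 1350 ± 78.1 CPM. ZBP1, a sensor of left-handed double helices, had no count at 0 h and 3.12, 2.60 and 4.21 CPM at 24 h, at least 79.6-fold higher.

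Of the 16 sensors and adaptors listed, 12 rose over 2-fold and none fell over 2-fold, with a median log2 fold change of 1.68 against 0.01 over all genes. ZBP1 had means under 1 CPM at 0 h in Mock, siNT and siELMO1 and passed the low-count filter through 24 h libraries. The adaptors were divided. TICAM1, the adaptor of TLR3, rose (log2 fold change 1.69 ± 0.07), whereas MAVS, the adaptor of the helicases, fell from 233 to 174 CPM (−0.42 ± 0.06, adjusted p = 2e-05). Among the kinases and ligases between adaptor and transcription factor, IKBKE rose (1.98 ± 0.05) and TBK1 rose less (0.51 ± 0.07), and TRAF3 was at 58.4 and 59.1 CPM (0.02 ± 0.06, adjusted p = 0.83).

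Among interferon genes, counts were found for beta and lambda interferon. IFNB1 (ENSG00000171855.7, chromosome 9 from 21077104 to 21077942) had no count in the 3 libraries of 0 h and 20.4, 21.3 and 27.5 CPM at 24 h, at least 554-fold higher. IFNL1 (ENSG00000182393.3, chromosome 19 from 39296407 to 39298673), a type III interferon, was likewise at 0 before treatment and reached 7.75, 7.59 and 8.29 CPM, at least 189-fold higher. Both groups are separate in both genes. Of the 22 interferon genes listed, 3 passed the low-count filter, and the third of these, IFNE, was at 0.633 and 1.07 CPM (adjusted p = 0.063). Among the alpha interferon genes the highest count in any of the 6 libraries was 6, in IFNA7, and IFNL2 and IFNL3, which are close copies of each other, reached 26 and 43 counts.

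Genes that carry the interferon signal rose. STAT2, a subunit of the interferon-activated complex, rose from 43.5, 41.7 and 43.7 to 523, 558 and 564 CPM (12.8-fold). JAK2, a receptor kinase, rose 3.99-fold. Of the receptor chains, IFNAR2 rose (log2 fold change 1.08 ± 0.09) and IFNAR1 fell (−0.21 ± 0.06, adjusted p = 0.0065), while IFNLR1, the specific chain of the lambda receptor, had no count in any of the 6 libraries. Over 15 tested receptor, kinase and STAT genes 5 rose over 2-fold and none fell over 2-fold, with a median of 0.65.

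IRF7 (ENSG00000185507.21, chromosome 11 from 612553 to 615983), the interferon regulatory factor that amplifies interferon output, was at 10.4, 11.3 and 11.3 CPM at 0 h and 340, 344 and 370 CPM at 24 h, 31.9-fold higher (log2 fold change 4.99 ± 0.11, adjusted p = 7.8e-17). IRF9, the partner of STAT2, rose 9.8-fold, IRF1 rose 7.85-fold and IRF2 rose 3.62-fold, so that 4 of 6 tested family members rose over 2-fold. IRF3, which is switched on by phosphorylation rather than by its transcript, rose from 33.4 to 48.3 CPM (0.53 ± 0.09). The inhibitors of the pathway were divided. USP18, which removes ISG15 and blocks the type I receptor, rose 9.12-fold from 22.6 ± 0.745 to 206 ± 11.1 CPM and SOCS1 rose 2.94-fold, whereas SOCS7 fell 2.34-fold and SOCS5 fell 1.61-fold. Among the 9 genes of this feedback list 2 rose and 1 fell over 2-fold, with a median of −0.17.

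**Figure D2:**
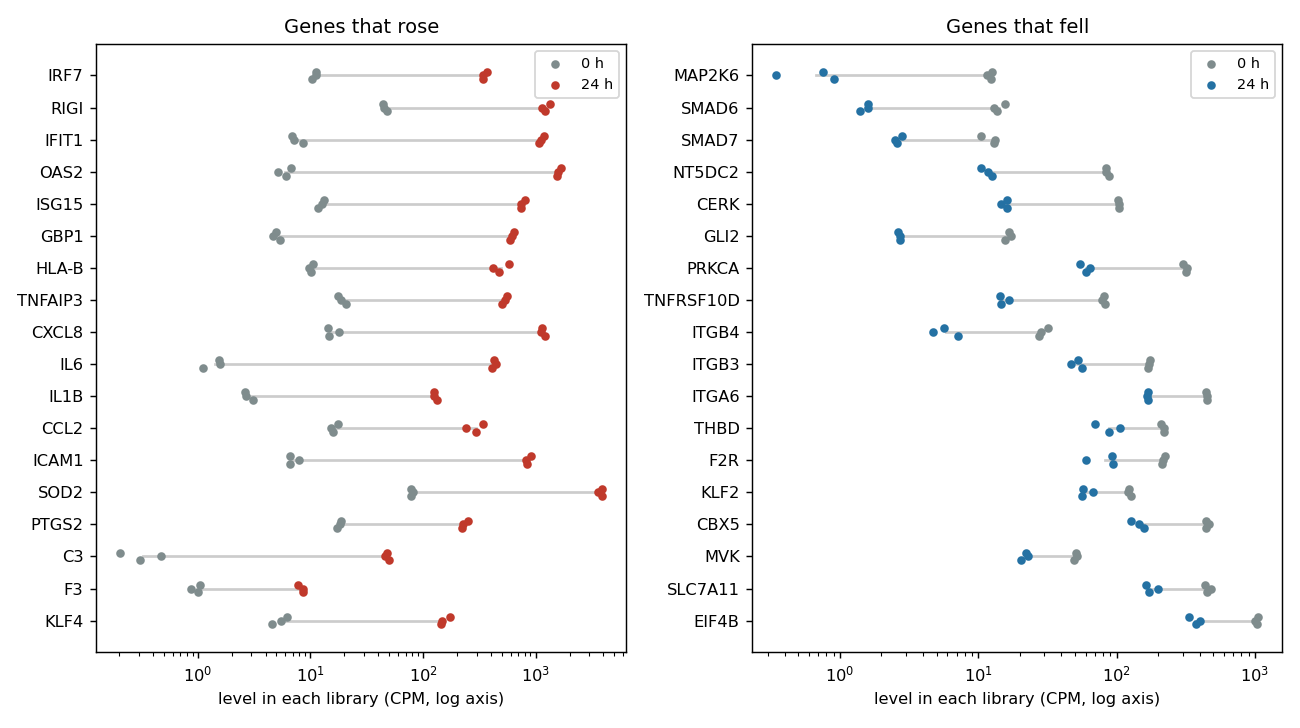
CPM of 18 genes that rose and 18 genes that fell in each of the 6 Mock libraries, on a log axis, with grey points for 0 h, coloured points for 24 h and a line between the group means. In the 36 genes drawn no library of 24 h lies within the range of the 0 h libraries. Lack of overlap was a condition for genes named as the largest rises and falls, so for such genes it is no separate result. Of all tested genes 69.3% had no overlap. IL6 was at 1.12 to 1.56 and then 414 to 445 CPM, and EIF4B at 1010 to 1060 and then 334 to 403 CPM.

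All tested members of the main antiviral families rose. Of the oligoadenylate synthetases, which make a nucleotide messenger on double-stranded RNA, OAS2 (ENSG00000111335.14, chromosome 12 from 112978395 to 113011723) went from 6.07, 5.17 and 6.78 to 1560, 1590 and 1680 CPM, 268-fold, and OAS3 from 52.3, 52.0 and 49.5 to 1730, 1770 and 1800 CPM, 34.4-fold. The related gene OASL rose 166-fold. MX2, a dynamin-like GTPase that restricts viruses at the nuclear pore, went from 0.0765, 0.0811 and 0.064 CPM to 327, 331 and 381 CPM (log2 fold change 12.16 ± 0.32), while its relative MX1 went from 1.28 to 11.4 CPM (3.15 ± 0.23). All 7 genes of this list rose over 2-fold, with a median of 5.11. MX2 had means under 1 CPM at 0 h in Mock, siNT and siELMO1 and passed the low-count filter through 24 h libraries. An unnamed gene overlaps OAS2 and OAS3 on the other strand, and whether counting used the strand is not stated, so such genes are uncertain. ZNFX1, CIITA, ISG15, HLA-B, TNFAIP3 and MAP2K6 also have such neighbours, and TAP1 and PSMB9 overlap each other on opposite strands. Not every named gene with such a neighbour is marked.

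IFIT proteins bind viral RNA that lacks the host's cap marks. IFIT1 (ENSG00000185745.10, chromosome 10 from 89392546 to 89406487) rose from 8.64, 7.19 and 6.87 to 1080, 1110 and 1190 CPM, 149-fold, IFIT2 rose 96.9-fold to 1410 ± 114 CPM and IFIT3 rose 64.8-fold to 1820 ± 135 CPM. LIPA overlaps these 3 genes on the other strand. The membrane proteins of the IFITM branch rose less evenly, with IFITM1 at 77.6-fold and IFITM2 at 1.52 on the log2 scale. All 8 tested members of the 10 listed rose over 2-fold, and the median was 5.77, or 5.06 with the gene at the limit of detection set at its bound. ISG15 (ENSG00000187608.10, chromosome 1 from 1001138 to 1014540), a ubiquitin-like protein that is attached to other proteins, rose from 11.6, 12.6 and 13.3 to 738, 743 and 804 CPM, 60.8-fold (5.93 ± 0.16, adjusted p = 1.6e-15). Its ligase HERC5 rose 76.8-fold and its conjugating enzyme UBE2L6 rose 13.1-fold, and all 6 genes of the pathway rose over 2-fold with a median of 3.65.

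The guanylate-binding proteins, GTPases that attack membranes of pathogens, rose in every tested case. GBP1 (ENSG00000117228.11, chromosome 1 from 89051882 to 89065360) went from 5.38, 4.62 and 4.95 to 587, 615 and 648 CPM, 124-fold. GBP2 rose from 1.01 to 32.8 CPM (log2 fold change 5.01 ± 0.24) and GBP3 from 33.1 to 253 CPM (2.94 ± 0.10). All 6 tested members of the 7 listed were over 2-fold, with a median of 8.19, or 6.02 with GBP7, which had no count at 0 h, at its bound. GBP4, GBP5 and GBP7 had means under 1 CPM at 0 h and passed the filter through 24 h libraries. Another 26 tested antiviral effectors, of 28 listed, rose over 2-fold. None had overlap between groups, which also held for 2168 of the 2202 genes past both thresholds and 69.3% of all tested genes. Together the listed effectors went from between 1425 and 1449 CPM to between 16400 and 17530 CPM. SAMD9, which blocks poxvirus growth, rose from 250, 253 and 248 to 2420, 2550 and 2670 CPM, IFI6 rose 66.9-fold and BST2, which tethers budding virions, went from 0.184, 0.0811 and 0.166 to 166, 145 and 210 CPM. The 2 listed effectors that did not pass the filter, CMPK2 and EPSTI1, reached 3 and 22 counts. BST2, XAF1 and RSAD2 had means under 1 CPM at 0 h in Mock, siNT and siELMO1 and passed it through 24 h libraries. In the list of RNA and DNA editing genes 4 of 8 rose over 2-fold, with a median of 1.21. ADAR, which edits double-stranded RNA, rose 3.68-fold from 306 ± 6.29 to 1130 ± 30.1 CPM, APOBEC3G rose 9.63-fold, and ADARB1 fell (−0.57 ± 0.06). Of the 41 tested TRIM genes, a family of ubiquitin ligases, 12 rose and 1 fell over 2-fold, with a median of 0.22, led by TRIM69 at 9.46-fold and TRIM22 at 8.48-fold.

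Genes of class I antigen presentation rose. HLA-B (ENSG00000234745.14, chromosome 6 from 31353872 to 31367067) went from 10.2, 9.79 and 10.5 to 470, 420 and 578 CPM, 48.1-fold, HLA-C rose 12.3-fold, and B2M, the shared light chain, rose from 305, 298 and 306 to 1540, 1460 and 1780 CPM, 5.26-fold. NLRC5, the transactivator of class I genes, rose 7.99-fold. All 8 genes of the list rose over 2-fold, with a median of 2.85. Reads of the class I genes can be shared between them, so their separate values are uncertain. Of 7 tested class II genes none rose over 2-fold, the median was −0.61, and HLA-DRA fell from 3.04, 1.93 and 1.89 to 1.18, 1.06 and 1.16 CPM (2.01-fold, adjusted p = 0.003). CIITA, the class II transactivator, was at 9.34, 8.90 and 9.30 CPM and then 7.56, 4.90 and 3.12 CPM (−0.82 ± 0.35, adjusted p = 0.049), and the call was lost with DESeq2, without any of the Mock 0 h replicates and without Mock 24 h replicate 2 or 3 (−0.56 without replicate 3).

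The subunits that make the immunoproteasome and load peptide onto class I rose with it. The peptide transporter gene TAP1 rose 16.6-fold from 19.9 ± 1.47 to 330.0 ± 16.2 CPM, its neighbour PSMB9 rose 11.6-fold, PSMB10 rose 5.98-fold and TAP2 rose 5.69-fold. Of 13 listed genes 11 rose over 2-fold, with a median of 1.65. In the constitutive proteasome none of 33 genes changed over 2-fold in either direction, with a median of 0.04. By adjusted p alone 14 of the 33 rose and 4 fell, a balance that turned to 7 and 12 with libraries scaled by their totals. The largest of these small rises was PSMA4 at 1.9-fold.

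NF-kB subunits and their feedback inhibitors rose together. TNFAIP3 (ENSG00000118503.18, chromosome 6 from 137867214 to 137883314), the ubiquitin-editing inhibitor A20, went from 20.8, 18.8 and 17.5 to 500, 538 and 562 CPM, 28.1-fold (log2 fold change 4.81 ± 0.09, adjusted p = 1.1e-17). TRAF1 rose 167-fold from 1.80 ± 0.0932 to 301 ± 24.5 CPM, BIRC3 rose 132-fold, and the inhibitor gene NFKBIA rose from 57.4 to 574 CPM (3.32 ± 0.08). Among the subunits RELB rose 20.9-fold and NFKB2 3.52 on the log2 scale, whereas RELA, NFKB1 and REL rose by 1.26, 1.49 and 1.07. Of 17 genes 14 rose over 2-fold and 17 by adjusted p alone, with a median of 3.19.

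Chemokines that call neutrophils and monocytes rose. CXCL8 (ENSG00000169429.12, chromosome 4 from 73740519 to 73743716) was at 14.5, 18.1 and 14.4 CPM at 0 h and 1200, 1120 and 1140 CPM at 24 h, 73.3-fold higher (log2 fold change 6.20 ± 0.13, adjusted p = 6e-17). CXCL1 (ENSG00000163739.5, chromosome 4 from 73869393 to 73871308) went from 0.382, 0.703 and 0.768 to 128, 113 and 140 CPM and CXCL2 from 1.79, 1.19 and 1.22 to 124, 126 and 136 CPM. CCL2 (ENSG00000108691.10, chromosome 17 from 34255274 to 34257208), the monocyte attractant, rose 18.0-fold from 15.8, 15.2 and 17.5 to 293, 242 and 343 CPM. CCL5 (ENSG00000271503.7, chromosome 17 from 35871491 to 35880793), which attracts T cells and monocytes, went from 0.336, 0.0406 and 0.307 to 167, 141 and 221 CPM (9.60 ± 0.42), and CCL20 rose 179-fold. CXCL10, a T cell attractant induced by interferon, had no count at 0 h and 28.6, 24.3 and 35.0 CPM at 24 h, at least 704-fold higher, and ART3 overlaps it on the other strand. Of 18 CXC family genes 7 passed the filter and all 7 rose over 2-fold, and of 26 CC genes 7 passed and 6 rose. Over all tested genes 8.6% rose over 2-fold. CXCL1, CXCL10, CXCL11, CCL3, CCL4, CCL5 and CCL20 had means under 1 CPM at 0 h in Mock, siNT and siELMO1. The filter admitted them through 24 h libraries, so the counts of rises were largely set by the filter. CXCL9, a close relative of CXCL10, had no count in any of the 6 libraries and CX3CL1 had at most 8.

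Of the interleukins, IL6 (ENSG00000136244.12, chromosome 7 from 22725884 to 22732002) rose 302-fold from 1.12, 1.56 and 1.55 to 414, 445 and 424 CPM (log2 fold change 8.24 ± 0.20, adjusted p = 4.3e-16), with IL6-AS1 and STEAP1B on the other strand. IL1B (ENSG00000125538.12, chromosome 2 from 112829751 to 112836816) rose 45.3-fold from 3.09, 2.68 and 2.65 to 132, 125 and 124 CPM. IL32, a proinflammatory cytokine of primates, rose 98.1-fold, and CSF3, the granulocyte growth factor, rose 37.3-fold to 154 ± 17.0 CPM. Of 45 listed genes 17 passed the filter, of which 14 rose and 1, IL17D, fell over 2-fold. IL32 had a mean under 1 CPM at 0 h and passed the filter through 24 h libraries. TNF (ENSG00000232810.5, chromosome 6 from 31575565 to 31578336) had no count at 0 h and 3.37, 1.72 and 3.22 CPM at 24 h, at least 66.6-fold higher. Among the other ligands of its family TNFSF10, the death ligand TRAIL, went from 0 in all 3 libraries to 69.0, 62.8 and 100.0 CPM, at least 1860-fold higher, and TNFSF13B, the B cell survival factor, rose at least 552-fold.

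Receptors for these cytokines moved in both directions. IL7R rose 14.3-fold from 45.5, 45.4 and 43.3 to 643, 614 and 655 CPM, and IL22RA1 rose 10.5-fold. IL6R, the ligand-binding chain for IL-6, fell from 9.30, 10.2 and 9.86 to 3.79, 3.00 and 4.42 CPM (2.62-fold, adjusted p = 6.6e-08), while the shared signalling chain IL6ST rose 1.27-fold. Of 29 tested interleukin and growth factor receptors 8 rose and 3 fell over 2-fold, with a median of 0.40. Among these rises IL15RA and IL12RB1 had means under 1 CPM at 0 h in Mock, siNT and siELMO1 and passed the filter through 24 h libraries. The decoy receptor of TRAIL encoded by TNFRSF10D was among the largest falls, from 82.4, 78.7 and 80.9 to 14.6, 16.6 and 14.4 CPM (5.3-fold), and TNFRSF10B, a signalling TRAIL receptor, rose 1.51-fold.

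Genes of cell death rose on both the death-promoting and the protective side. CASP1 rose 8.12-fold from 14.7 ± 0.441 to 120.0 ± 6.45 CPM, CASP10 4.64-fold and MLKL, the executor of necroptosis, 3.41-fold, while CFLAR, which inhibits caspase-8, rose 6.49-fold. CASP8 rose by 1.04 ± 0.06 on the log2 scale. Of 14 tested genes of this list 7 rose over 2-fold and none fell over 2-fold, with a median of 1.01. In the BCL2 family the death-promoting genes PMAIP1 (NOXA) and BBC3 (PUMA) rose 11.3-fold and 3.36-fold, and the protective genes BCL2A1 and MCL1 rose 11.6-fold and 2.34-fold. BCL2, another protective gene, fell 2.29-fold (log2 fold change −1.19 ± 0.41, adjusted p = 0.019), a call that was lost without Mock 24 h replicate 3 (−0.86, adjusted p = 0.09). Of the 14 tested genes of the family 9 rose and 4 fell by adjusted p alone, 4 and 1 of them over 2-fold, with a median of 0.52. The falls were near the 29.6% of all tested genes that fell by adjusted p alone, and 30.7% rose. RIPK3, the kinase upstream of MLKL, had at most 5 counts in any of the 6 libraries.

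**Figure D3:**
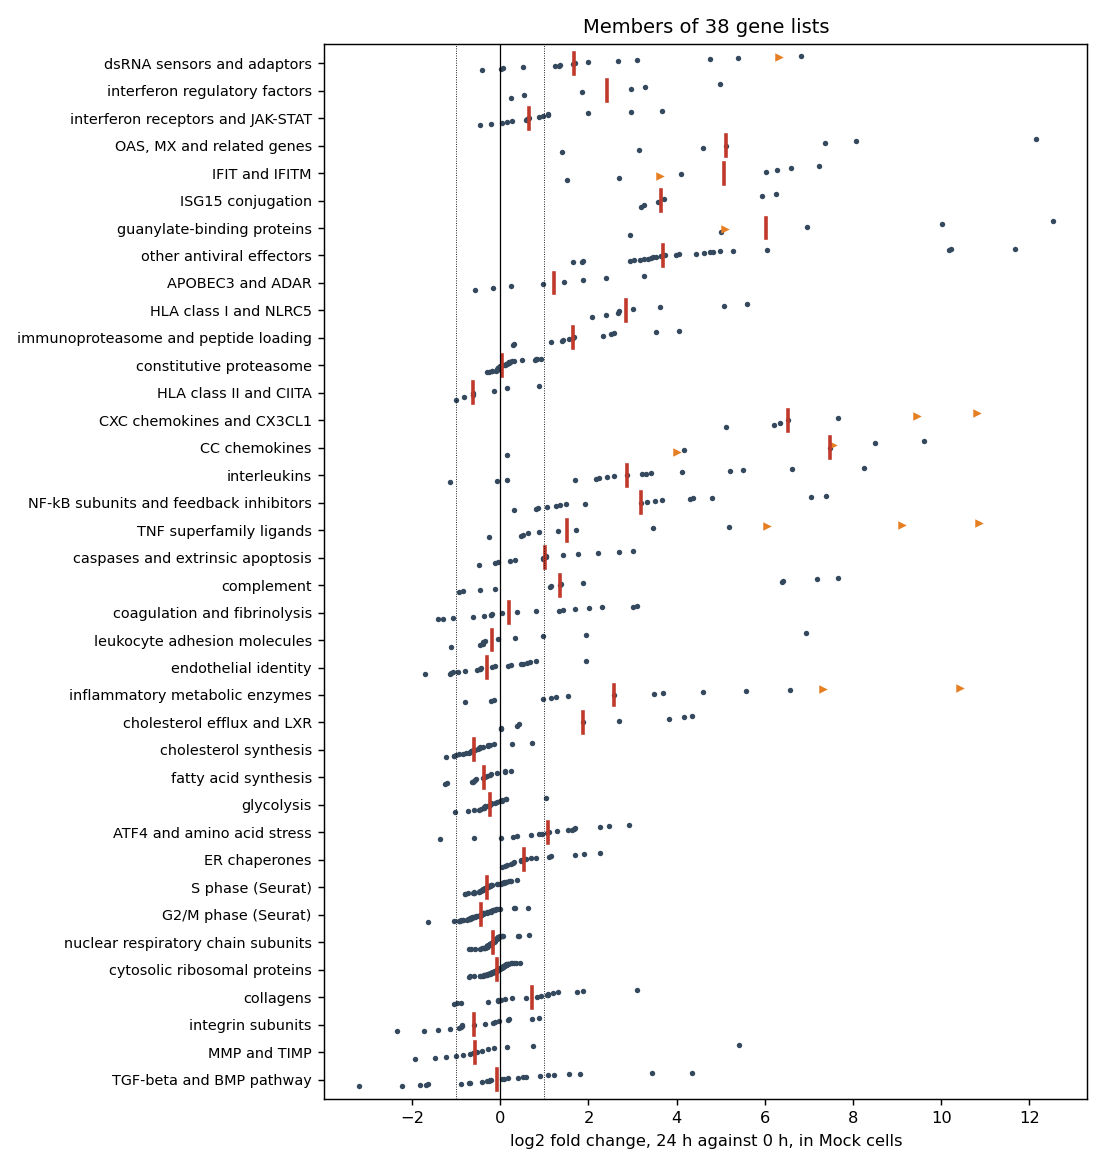
Log2 fold change at 24 h against 0 h of every tested member of 38 gene lists (points), with the list median as a red bar and members at the limit of detection at 0 h as orange triangles at their lower bound. The interferon-stimulated, class I, NF-kB and chemokine lists lie to the right of 0, and the cell cycle, cholesterol synthesis, integrin and matrix protease lists have medians to the left.

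Endothelial surface genes were divided. ICAM1 (ENSG00000090339.9, chromosome 19 from 10271093 to 10286615), which holds leukocytes to the vessel wall, rose 122-fold from 6.64, 7.92 and 6.56 to 840, 821 and 915 CPM (log2 fold change 6.93 ± 0.09, adjusted p = 5e-19). VCAM1 and SELE, adhesion molecules that inflamed endothelium is known to put up, had at most 5 and 3 counts in these libraries and were not tested. PECAM1 fell from 161, 148 and 186 to 78.7, 47.6 and 102.0 CPM (2.17-fold) with a wide spread at 24 h, and ALCAM rose 1.26-fold. Of 10 tested adhesion molecules 2 rose and 1 fell over 2-fold, with a median of −0.19. Of the 20 tested endothelial identity genes 1 rose and 4 fell over 2-fold, and by adjusted p alone 6 rose and 10 fell, with a median of −0.31. Over all tested genes 30.7% rose and 29.6% fell by adjusted p alone, and the 6 rises were near that share. The summed level of the list was 2830 to 2995 CPM at 0 h and 2059 to 2595 CPM at 24 h. CD34 rose 3.84-fold, CDH5, the cadherin of endothelial junctions, rose (0.52 ± 0.07), and ENG, NOS3 and the transcription factor SOX18 fell, by 0.80, 0.95 and 1.71 on the log2 scale.

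Genes of clotting and fibrinolysis moved in both directions. Tissue factor (F3), which starts clotting, rose 8.54-fold from 0.975 ± 0.0965 to 8.34 ± 0.441 CPM, and TFPI2 rose 8.02-fold. THBD, the thrombomodulin that restrains thrombin, fell from 219, 220 and 208 to 88.7, 106 and 69.7 CPM (2.44-fold), and the thrombin receptor F2R fell 2.65-fold. Of 18 tested genes 7 rose and 3 fell over 2-fold, with a median of 0.21.

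Complement genes rose from very low levels. C3 went from 0.306, 0.473 and 0.205 to 50.2, 46.4 and 47.5 CPM (log2 fold change 7.19 ± 0.17), CFB from 0.265 ± 0.0650 to 54.3 ± 9.13 CPM, and C1R and C1S, proteases of the classical pathway, rose 83.6-fold and 84.9-fold. Of 13 tested genes 9 rose over 2-fold and none fell over 2-fold, with a median of 1.35. CD59, which protects cells from the membrane attack complex, fell from 1840, 1790 and 1920 to 987, 858 and 1060 CPM (1.91-fold, adjusted p = 2.4e-09), so that the summed level of the list was lower at 24 h (1462 to 1761 CPM) than at 0 h (2164 to 2307 CPM).

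The 15 largest rises by the rule for named genes were led by genes that had no or nearly no count at 0 h. Beside IFNB1, IFNL1, TNFSF10, TNFSF13B and CXCL10 they held CXCL11 (at least 1790-fold), the itaconate-making enzyme ACOD1 (at least 1380-fold), the calcium channel CACNA1I (at least 195-fold), the matrix-binding protein TNFAIP6 (at least 172-fold), the tryptophan-degrading enzyme IDO1 and the adaptor HSH2D (both at least 160-fold). MX2, GBP4, XAF1 and SLC15A3 completed them. GBP4 had 0.122, 0 and 0 CPM at 0 h and 221, 191 and 280 CPM at 24 h, and its fitted log2 fold change of 12.53 was 16.76, 11.93 and 11.89 without Mock 0 h replicate 1, 2 or 3. The fitted values of CXCL11 and ACOD1 also moved by over 1.5-fold without a single 0 h library, Mock 0 h replicate 1 (to 15.13) and replicate 2 (to 14.74), so only their bounds are used. XAF1 had 0.122, 0 and 0.102 CPM and then 240.0, 251 and 247 CPM (11.67, and 11.05 without Mock 0 h replicate 2). SLC15A3, a transporter of histidine and peptides, had 0, 0.122 and 0 CPM and then 50.5, 55.1 and 54.0 CPM (10.26, and 14.64 or 9.61 without Mock 0 h replicate 2 or 3). Groups that do not overlap were a condition of the rule that chose these 15.

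Enzymes that shape the metabolism of inflamed cells rose with the cytokines. SOD2 (ENSG00000291237.1, chromosome 6 from 159669069 to 159762529), the mitochondrial superoxide dismutase, rose 47.6-fold from 78.0, 82.0 and 78.7 to 3890, 3570 and 3900 CPM (log2 fold change 5.57 ± 0.09, adjusted p = 3.5e-18). ACAT2 and WTAP overlap it on the other strand. IL4I1, an amino acid oxidase, rose 95.9-fold, GCH1, which starts the synthesis of tetrahydrobiopterin, rose by 4.60 ± 0.14 on the log2 scale, and PTGS2, the inducible cyclooxygenase, rose 13.0-fold from 17.1, 18.2 and 18.7 to 224, 228 and 249 CPM. Of 15 tested genes 11 rose over 2-fold and none fell over 2-fold, with a median of 2.59. ACOD1 and IDO1 had means under 1 CPM at 0 h in Mock, siNT and siELMO1, so the filter admitted them through 24 h libraries. PTX3, a soluble pattern recognition protein, was among the 10 largest gains in CPM, from 717, 699 and 699 to 2680, 2380 and 2450 CPM. Gains in CPM are not corrected for gene length.

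Stress genes rose selectively. Among targets of ATF4, the factor of the integrated stress response, ATF3 rose 7.55-fold from 17.0, 18.1 and 15.9 to 124, 140 and 121 CPM, DDIT3 (CHOP) rose 4.83-fold and CHAC1 rose 5.55-fold. SLC7A11, the cystine transporter, which is a target of both ATF4 and NRF2, fell from 453, 482 and 439 to 171, 199 and 163 CPM (2.58-fold). Of 18 tested genes 10 rose and 1 fell over 2-fold, with a median of 1.08. Endoplasmic reticulum chaperones rose by less, with HSPA5 (BiP) going from 954, 947 and 945 to 2170, 2380 and 1810 CPM (2.24-fold) and DNAJB9 rising 4.79-fold. In that list 5 of 16 rose over 2-fold and 13 by adjusted p alone, with a median of 0.53. Cytosolic heat shock proteins had a median of 0.04, or −0.08 with libraries scaled by their totals, with 1 of 14 rising over 2-fold. NRF2 targets had a median of −0.07, and 2 of 22 fell over 2-fold.

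Immediate early factors and others that respond to stress and flow changed as well. BATF2, an interferon-induced partner of JUN, rose 30.7-fold from 5.48 ± 0.232 to 169 ± 6.69 CPM and JUNB rose 6.4-fold. KLF4 rose 28.6-fold from 4.54, 5.44 and 6.20 to 144, 146 and 174 CPM, while KLF2, which keeps endothelium quiescent under flow, fell from 128, 121 and 124 to 56.6, 67.5 and 56.9 CPM (2.06-fold, adjusted p = 1e-09). Of 11 tested AP-1 and EGR factors 6 rose over 2-fold (median 1.52), and of 11 Kruppel-like factors 1 rose and 3 fell (median −0.07). Replication-dependent histone genes, whose transcripts mostly lack a poly(A) tail, rose in 10 of 21 tested cases and had a median of 0.98. The most changed, H2AC18 and H2AC19, are near-identical copies that share reads, at 1.64 ± 0.143 and 8.73 ± 0.723 CPM for the first.

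Among genes with at least 5 CPM at 0 h and groups that did not overlap, the largest fall was that of MAP2K6 (ENSG00000108984.16, chromosome 17 from 69414697 to 69553865), a kinase that activates p38, from 12.4, 11.5 and 12.6 to 0.914, 0.348 and 0.754 CPM, 18.3-fold lower (log2 fold change −4.19 ± 0.22, adjusted p = 2.5e-11). SMAD6 (ENSG00000137834.15, chromosome 15 from 66702236 to 66782849), an inhibitor of BMP signalling, fell 9.2-fold from 13.7, 13.0 and 15.7 to 1.39, 1.59 and 1.61 CPM. CERK, which makes ceramide 1-phosphate, fell 6.71-fold from 105, 105 and 103 to 16.1, 14.5 and 16.2 CPM. PRKCA, protein kinase C alpha, fell 5.26-fold from 319, 323 and 301 to 60.2, 64.8 and 54.4 CPM. The other falls among the 15 largest by that rule were those of NT5DC2 (7.37-fold), the somatostatin receptor SSTR5 (6.63-fold), ATPSCKMT (6.61-fold), the Hedgehog factor GLI2 (6.11-fold), PALMD (5.47-fold), MGARP (5.15-fold), the integrin subunit ITGB4 (5.06-fold), TNFRSF10D and 3 long noncoding RNAs, LINC01963, LINC01444 and LINC02035, at 6.52-fold, 6.08-fold and 5.86-fold. Groups without overlap were a condition for these 15 as well. Of the 10 largest losses in CPM, the translation factor gene EIF4B had the largest fold, from 1040, 1010 and 1060 to 377, 403 and 334 CPM (2.79-fold). The largest of these losses in CPM was that of VIM (vimentin), from 5470 ± 104 to 3950 ± 273 CPM, 1.39-fold.

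Proliferation genes fell by small amounts. Of 54 G2/M genes 41 fell and 3 rose by adjusted p alone, 2 of them fell over 2-fold, and the median was −0.43. TOP2A, the topoisomerase of mitotic chromosomes, fell 1.9-fold from 536, 545 and 523 to 283, 297 and 262 CPM and BIRC5 (survivin) fell 2.09-fold from 145 ± 2.95 to 69.4 ± 5.89 CPM. CBX5, a heterochromatin protein in the list, fell 3.14-fold. Of 43 S phase genes 28 fell and 5 rose, none over 2-fold, with a median of −0.29. Among all tested genes 29.6% fell and 30.7% rose by adjusted p alone. RRM1, a subunit of ribonucleotide reductase, fell 1.66-fold, PRIM1, a primase subunit, fell 1.74-fold and PCNA fell 1.18-fold.

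Lipid synthesis genes fell, while the cholesterol exporter gene ABCA1 and APOL genes rose. In the cholesterol pathway 21 of 24 tested genes fell and 2 rose by adjusted p alone, against 29.6 and 30.7% of all tested genes. In that pathway 4 genes fell over 2-fold, and the median was −0.59. Mevalonate kinase (MVK) fell 2.35-fold from 51.0 ± 1.31 to 21.7 ± 1.32 CPM, and MVD, which acts later in the pathway, fell 2.08-fold. Of 16 fatty acid synthesis genes 12 fell and 2 over 2-fold, among them ACACA, the acetyl-CoA carboxylase, at 2.4-fold. In the list of cholesterol efflux genes, which also holds APOL genes, ABCA1 rose from 22.5 to 82.0 CPM (1.87 ± 0.09). APOL1, a channel-forming trypanosome-killing protein, rose 20.4-fold from 9.39, 10.0 and 10.8 to 207, 181 and 227 CPM. In that list 5 of 9 rose over 2-fold, with a median of 1.87, and 4 of the 5 were APOL genes.

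In glycolysis and respiration few genes changed over 2-fold. Of 21 glycolytic genes 13 fell by adjusted p alone, LDHA over 2-fold from 1650, 1580 and 1630 to 785, 833 and 791 CPM, and hexokinase 2 (HK2) rose 2.06-fold. Of 75 nuclear subunits of the respiratory chain 40 fell and 3 rose, none over 2-fold, with a median of −0.17, and of 82 cytosolic ribosomal protein genes 27 fell and 10 rose, none over 2-fold, with a median of −0.07. With libraries scaled by their totals the falls numbered 61 and 42 and the rises 3 and 2. Over all tested genes 29.6% fell and 30.7% rose by adjusted p alone with TMM factors. The ribosomal protein falls with TMM factors were near that share. Of the 13 mitochondrially encoded mRNAs 2 rose, with a median of 0.13.

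Matrix genes, integrins and matrix proteases moved in both directions. By adjusted p alone 11 of 20 tested collagens rose and 3 fell, 7 and 1 of them over 2-fold, with a median of 0.71, led by COL12A1 at 8.56-fold (from 1.87, 2.34 and 2.19 to 20.9, 17.3 and 16.6 CPM) and including COL4A1, a basement membrane chain, at 3.34-fold with COL4A2 on the other strand. Of 14 laminins, fibronectin and nidogens 7 rose and 3 fell by adjusted p alone, and 4 rose over 2-fold (median 0.21). Among all tested genes 30.7% rose and 29.6% fell by adjusted p alone. Of 17 integrin subunits 2 rose and 10 fell by adjusted p alone, and none rose and 4 fell over 2-fold, with a median of −0.60: ITGB4, ITGB3 (3.33-fold lower), ITGA6 (2.68-fold lower, from 449, 454 and 447 to 170.0, 167 and 168 CPM) and ITGB5 (2.21-fold lower). Of 14 matrix metalloproteases and their inhibitors 2 rose and 10 fell by adjusted p alone, 1 and 4 of them over 2-fold, with a median of −0.57, and MMP1, the interstitial collagenase, fell 1.6-fold from 2250 ± 47.7 to 1410 ± 139 CPM.

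BMP and activin signalling genes moved in both directions. The inhibitors SMAD6 and SMAD7 fell 9.2-fold and 4.67-fold, and BMP6 fell 3.53-fold from 67.6, 67.0 and 74.6 to 20.8, 19.7 and 18.8 CPM. FST, which binds activin, rose 11.0-fold from 12.2, 11.3 and 11.4 to 128, 137 and 118 CPM, and INHBA, an activin subunit, rose 2.96-fold. ID2 and ID3, which BMP signals induce in many cells, rose 3.5-fold and 2.33-fold. Of 26 genes 6 rose and 5 fell over 2-fold, with a median of −0.08. In the Notch pathway the ligand DLL1 rose 8.04-fold and the target HES1 fell 2.75-fold, with 2 rises and 3 falls among 11 tested genes. Of 14 ELMO, DOCK and RAC genes 4 rose and 8 fell by adjusted p alone, with a median of −0.31, and 1 of them, RAC3, fell over 2-fold (2.02-fold). Over all tested genes 30.7% rose and 29.6% fell by adjusted p alone, and the rises in this list were near that share. ELMO2, a relative of the gene targeted in the siELMO1 cells, rose 1.56-fold from 56.9 ± 0.935 to 88.5 ± 2.49 CPM.

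Markers of other cells were read in the same libraries. Epithelial markers, which the A549 parent can supply, passed the filter in 6 of 12 cases, and their summed level was 1521 to 1544 CPM at 0 h and 850.4 to 868.6 CPM at 24 h. KRT7 fell 2.1-fold and MUC1 rose (log2 fold change 1.17), while CDH1, SFTPC and NKX2-1 had no count. Of 12 leukocyte markers 2 passed the filter, and the list summed to 54.4 to 77.9 CPM and then 219 to 286 CPM. The lysosomal gene CD68, which many cell types hold, rose 3.92-fold, PTPRC reached 29 counts and CD3E and TYROBP had none. Of 10 markers of fibroblasts and smooth muscle only ACTA2 passed (2.2-fold higher), the list summed to 7.92 to 11.0 CPM and then 17.8 to 21.4 CPM, and DCN and LUM had no count. The part of these cells or genes in the results was not tested.

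Within genes, the use of transcripts was tested on 7801 genes with at least 2 transcripts of 1 CPM or more, and 80 (1.03%) had an adjusted p under 0.05 and a share that moved by at least 20 percentage points. ZC3HAV1, the zinc-finger antiviral protein, was one of them. Shares are of the summed counts of a gene's tested transcripts. ZC3HAV1-201 made up 92.3, 88.6 and 92.2% of these counts at 0 h and 46.6, 48.4 and 47.7% at 24 h, while ZC3HAV1-204 went from 3.92, 4.28 and 5.50% to 46.6, 46.0 and 45.9% (adjusted p = 0.0045). The ZC3HAV1 gene itself rose 10.7-fold. In TNIP1, an A20-binding inhibitor, TNIP1-201 went from a mean of 0.64% to 34.6%. In BATF2 the share of BATF2-201 rose from 52.4 to 95.9%, and in WARS1, the interferon-induced tryptophanyl-tRNA synthetase, that of WARS1-204 rose from 7.95 to 42.2%. The groups do not overlap for any of these transcripts.

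In IFIH1 the transcript IFIH1-208, annotated as a target of nonsense-mediated decay, had no count at 0 h and made up 32.2, 21.2 and 31.2% at 24 h, while IFIH1-206 went from 87.3, 95.3 and 93.8% to 55.3, 70.9 and 61.7% (adjusted p = 0.0011). In the cytoskeletal genes LPP and DYNC2H1 nearly the whole count of the tested transcripts moved from one transcript to another, both annotated as protein-coding, with LPP-201 going from 0 to 94.9% and DYNC2H1-211 from 0 to 100%. For ADAR, whose long form is started by interferon, the shift was not called (adjusted p = 0.45). Shares of transcripts were estimated by StringTie from 100-base pairs, and only transcripts that differ by reads unique to them can be told apart well.

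**Figure D4:**
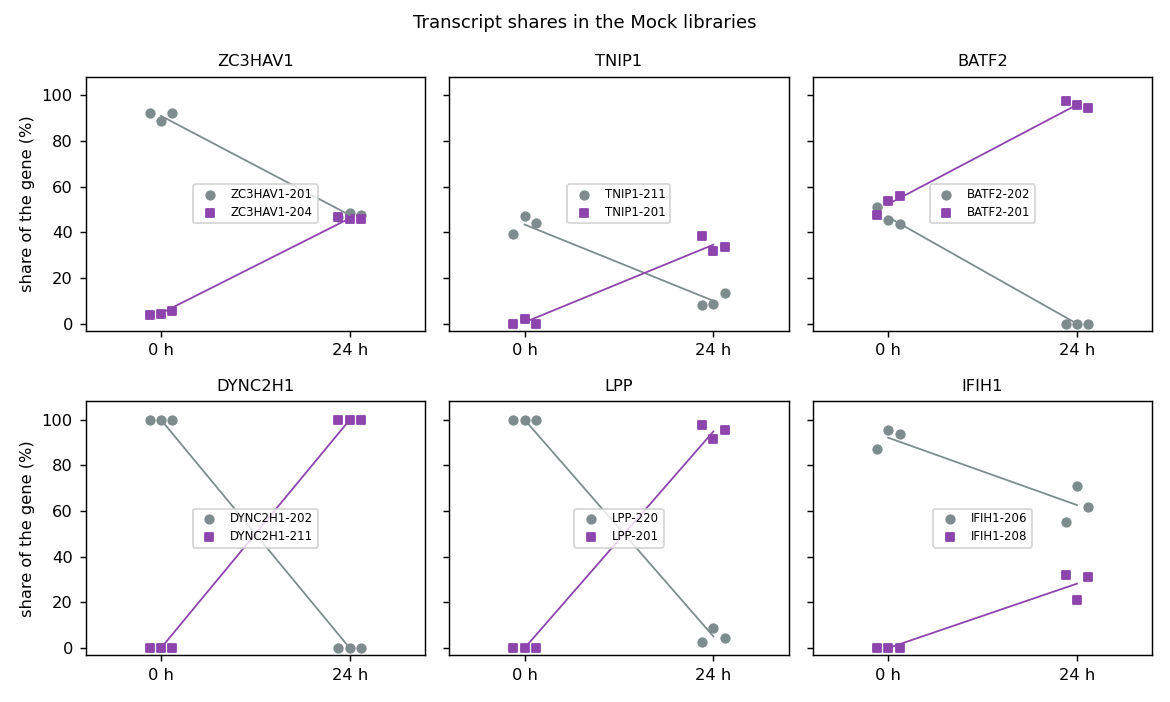
Share of the estimated counts of each gene's tested transcripts, in percent, that fell to its main transcripts in each Mock library at 0 h and 24 h, for ZC3HAV1, TNIP1, BATF2, DYNC2H1, LPP and IFIH1. Lines join group means and points are libraries. The second transcript of each pair gains in every library of 24 h, from 47.5 to 56.0% up to 94.6 to 97.4% for BATF2-201 and from 0 to 100% for DYNC2H1-211.

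The Mock response was compared with that of the siNT and siELMO1 cells by an interaction term in the same model. Over all genes 2268 (15.0%) had a more positive and 2428 (16.0%) a more negative log2 change in siNT than in Mock, and 2090 (13.8%) had a more positive and 2209 (14.6%) a more negative one in siELMO1. Of the 1304 genes that rose over 2-fold in Mock, the change was more negative for 619 and more positive for 15 in siNT, and for 427 and 39 in siELMO1. Of the 898 that fell over 2-fold in Mock, it was more positive for 404 and more negative for 3 in siNT, and for 284 and 8 in siELMO1. The Mock values that chose these genes also enter each difference. With libraries scaled by their totals the counts over all genes were 3072 and 1669 for siNT and 2551 and 1674 for siELMO1. The 2 comparisons share the 6 Mock libraries, so each is given for itself. In NF-kB genes the median change was 3.19 in Mock, 1.33 in siNT and 2.57 in siELMO1, and the change was smaller than in Mock for 13 of 17 genes in siNT and 8 in siELMO1. For ICAM1 the log2 fold change was 6.93 in Mock, 4.45 in siNT and 4.79 in siELMO1 (differences of −2.48 ± 0.10 and −2.14 ± 0.10, adjusted p = 1.2e-10 and 3.5e-10). For CXCL8 it was 6.20, 3.52 and 5.04, and for IL6 8.24, 4.96 and 5.79. At 24 h CXCL8 stood at 1150 ± 44.9 CPM in Mock, 237 ± 27.0 in siNT and 589 ± 68.5 in siELMO1.

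Antiviral lists differed in how far siNT lay from Mock. Over 26 antiviral effectors the median was 3.70 in Mock, 3.20 in siNT and 3.53 in siELMO1, with a smaller change in 20 and 12 of them. For 6 guanylate-binding proteins it was 8.19, 4.70 and 7.66, with a smaller change in 4 and 3 of them, and for 8 IFIT and IFITM genes 5.77, 4.81 and 5.44, with a smaller change in 5 and 3. With genes at the limit of detection set at their bound, the Mock medians of these lists were 6.02 and 5.06. Such bounds were not computed for siNT and siELMO1, so the gaps between these medians are uncertain. IFIT1 rose by 7.22 in Mock, 6.96 in siNT and 7.52 in siELMO1, and the differences did not pass the test (−0.26 ± 0.17, adjusted p = 0.29, and 0.30 ± 0.18, adjusted p = 0.23). IFIT2 and IFIT3 rose less in siNT than in Mock (−1.14 ± 0.20, adjusted p = 0.00037, and −1.51 ± 0.14, adjusted p = 5.1e-07). ISG15 rose less in siNT than in Mock (−0.86 ± 0.19, adjusted p = 0.0021), and for siELMO1 the difference was 0.24 ± 0.19 (adjusted p = 0.40). TLR3 rose by 3.11 in Mock and 2.34 in siNT (difference −0.77 ± 0.15, adjusted p = 0.00098). For class I genes the medians were 2.85, 1.94 and 2.86, with 7 of 8 smaller in siNT and 1 of 8 in siELMO1.

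In stress, matrix and clotting genes differences ran both ways. The ATF4 list had a median of 1.08 in Mock, 0.18 in siNT and 0.39 in siELMO1, with smaller changes in 15 and 12 of 18 genes. DDIT3 rose by 2.27 in Mock, 0.79 in siNT and 0.71 in siELMO1. Integrin subunits had medians nearer 0 in both (medians −0.60, −0.13 and −0.22, more positive values in 6 and 10 of 17). THBD fell by 1.29 in Mock, and its log2 change in siNT was higher by 1.29 ± 0.18 (adjusted p = 3.4e-05). In siELMO1 it fell by 1.60, which did not differ from Mock by the test (adjusted p = 0.22). SMAD6 fell by 3.20, 1.48 and 2.04, less in both transfected groups than in Mock (adjusted p = 8.5e-08 and 8.7e-06).

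The cell cycle lists had medians of the opposite sign in siELMO1. Of the 54 G2/M genes, whose median fell by 0.43 in Mock, the median was −0.82 in siNT and 0.80 in siELMO1, with 53 changes more positive in siELMO1 than in Mock. For the 43 S phase genes the medians were −0.29, −0.45 and 0.82, with 39 more positive in siELMO1. According to the study, many cell cycle regulators stood lower before poly(I:C) in siELMO1 cells than in both controls. The changes thus began from unequal levels at 0 h, and the part of those levels was not tested. The 13 mitochondrially encoded mRNAs had a median of −1.45 in siELMO1 against 0.13 in Mock, and siELMO1 replicates 2 and 3 at 0 h had a mitochondrial share of 4.02 and 3.95% against 1.86% in replicate 1. Their part in these differences was not tested.

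**Figure D5:**
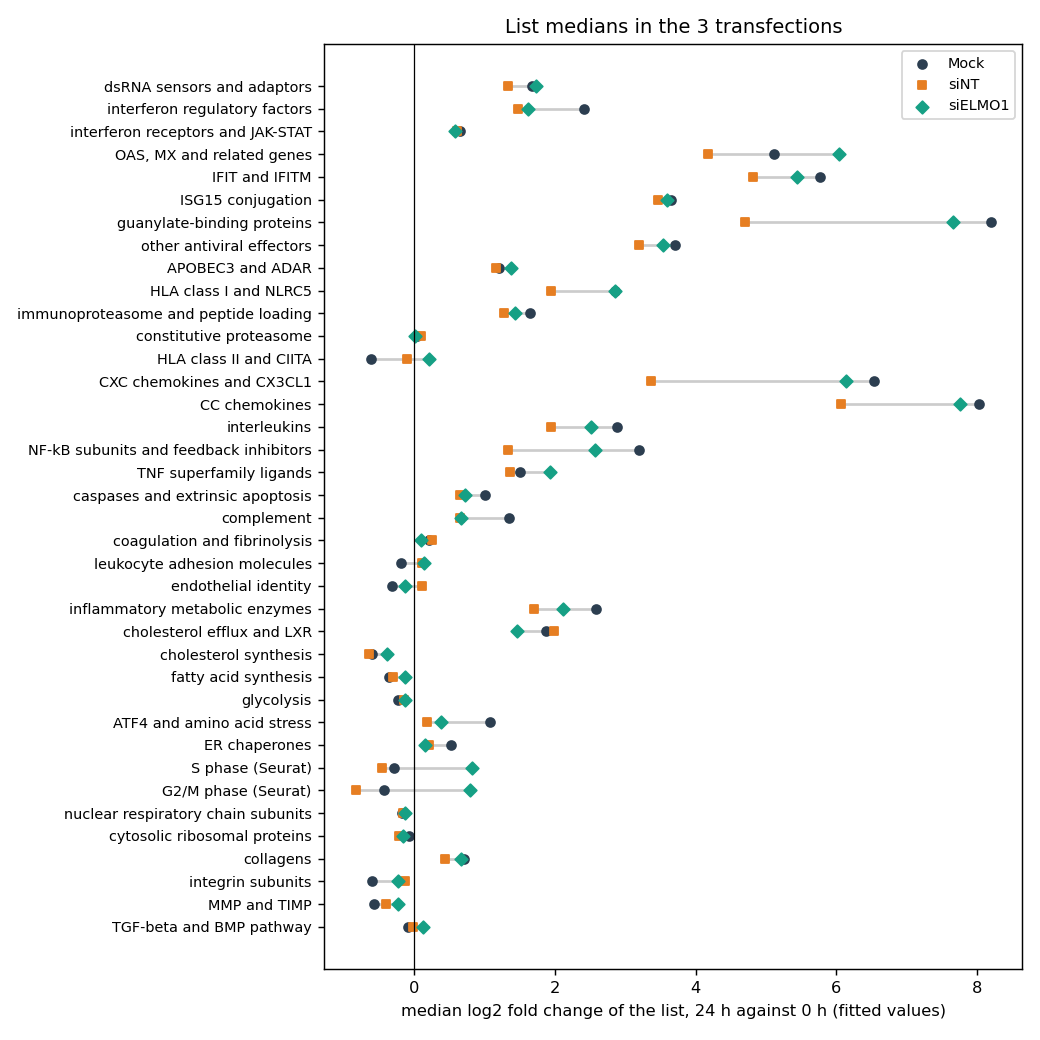
Median log2 fold change at 24 h against 0 h of the members of each gene list in Mock, siNT and siELMO1 cells, as fitted in 1 model. Genes at the limit of detection are not set at their bound here. The Mock points lie furthest from 0 for the NF-kB, chemokine and ATF4 lists, and the siELMO1 points of the S phase and G2/M lists lie on the other side of 0.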

How the data were processed

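Total RNA of EA.hy926 cells was extracted, and 18 libraries were made from it with a stranded mRNA kit and sequenced. There were 3 for each of 6 groups, and the 6 Mock libraries carry the comparison. The deposited values are estimated counts per gene and per transcript: the authors aligned 100-base read pairs to GRCh38 with STAR, assembled and quantified with StringTie and converted coverage to whole numbers with its count script. The read length given to that script and the use of strand in counting are not given in the sources used here, so the counts per read pair, and with them the limits of detection, are approximate. No separate columns of other series were present.

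Of 62754 genes, 24784 had no count in any library, and 15167 were tested, those with 100 or more counts summed over the libraries and 1 CPM or more in any of them. They include 13 pseudoautosomal copies on Y that repeat values on X, 2 of them past 2-fold, and the gene lists count such genes once. Counts were normalised with TMM and fitted over all 18 libraries with edgeR's quasi-likelihood test (edgeR 4.0.16, R 4.3.3), with Benjamini-Hochberg adjustment over all tested genes. The same model gave the interaction of transfection and time. Transcript shares were tested with edgeR's diffSpliceDGE on the 6 Mock libraries. An exact permutation test of 3 against 3 libraries cannot go below p = 0.1 and was not used. The steps were tested on simulated data.

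The genes named are those the study names for the response, the 15 largest rises and falls past both thresholds with at least 5 CPM and no overlap, the 10 largest gains and losses in CPM, up to 4 members of each of 56 lists with the most abundant one, and the 5 largest interactions each way. Some genes that fall under this rule are not reported here. Other list members named were chosen after their values were seen. The comparison, its members and the lists were chosen with earlier results of these data known. The alternatives were DESeq2 1.42.0, limma-voom 3.58.1, glmTreat, other scalings and filters, the Mock libraries alone, the replicate number as a block and leaving out each Mock library.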

Additional observations from a re-analysis of the deposited data

Results flagged for a closer look

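All 20 results here are single genes whose log2 change from 0 h to 24 h in siNT or siELMO1 differed from that in Mock by the interaction term (edgeR quasi-likelihood test, adjusted over 15167 genes), with values as difference ± SE. All of them share the 6 Mock libraries, and many had unequal levels at 0 h. The part of those levels in the differences was not tested.

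Inflammatory genes rose less in siNT than in Mock. CXCL1 rose by 7.65 in Mock and 3.23 in siNT, a difference of −4.43 ± 0.43 (adjusted p = 7e-07). TNFSF13B had −7.43 ± 1.23 (adjusted p = 0.00044), ACOD1 −4.76 ± 1.65 (adjusted p = 0.038) and TNFAIP6 −6.38 ± 2.13 (adjusted p = 0.033). TNFSF13B, ACOD1 and TNFAIP6 were at or near 0 at 0 h in Mock, so their fitted differences depend on the prior count and set no bound. ACOD1 reached 57.2 CPM at 24 h in Mock and 3.27 CPM in siNT. ADAP1, an adaptor for phosphoinositides, had −3.73 ± 0.76 (adjusted p = 0.0011), and its Mock value of 7.54 was 8.70 and 6.91 without Mock 0 h replicate 1 or 2.

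SULT1B1, a sulfotransferase, had a change of −0.22 in Mock that missed the threshold (adjusted p = 0.092, and from 0.012 to 0.043 in the 5 alternatives that called it) and rose by 3.21 in siNT, from 20.5 CPM against 105 CPM in Mock at 0 h, a difference of 3.43 ± 0.16 (adjusted p = 2.1e-10). SDC1, MICAL2, KRT15 and PRPF40B fell in Mock and had changes above 0 in siNT. They are not typical, as the 898 genes that fell over 2-fold in Mock had a median change of −0.77 in siNT. SDC1 (syndecan 1) differed by 2.20 ± 0.14 (adjusted p = 9.1e-09), MICAL2 by 2.11 ± 0.14 (adjusted p = 9.6e-09) and KRT15 by 2.11 ± 0.13 (adjusted p = 4.7e-09). PRPF40B differed by 2.26 ± 0.63 (adjusted p = 0.01), and its Mock change of −1.65 was −0.45 (adjusted p = 0.077) without Mock 0 h replicate 1.

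In siELMO1, genes of the cell cycle had more positive changes. PKMYT1, an inhibitory kinase of mitotic entry, went from −0.50 in Mock to 1.91 in siELMO1, a difference of 2.41 ± 0.20 (adjusted p = 1.3e-07). The ribonucleotide reductase subunit RRM2 differed by 2.07 ± 0.11 (adjusted p = 7.4e-10), from 55.5 CPM at 0 h against 381 CPM in Mock. Also more positive were TCF19, by 2.12 ± 0.17 (adjusted p = 7.6e-08), the histone chaperone ASF1B, by 2.12 ± 0.15 (adjusted p = 1.8e-08) from a Mock change of −0.18 that missed the threshold (adjusted p = 0.14, and from 0.011 to 0.044 in the 4 alternatives that called it), and CIITA, by 2.15 ± 0.50 (adjusted p = 0.0035). PTGS2 rose by 3.70 in Mock and 0.72 in siELMO1, where it stood at 73.7 CPM at 0 h against 18.0 CPM in Mock, a difference of −2.98 ± 0.18 (adjusted p = 2.8e-09), NR4A2 differed by −2.71 ± 0.28 (adjusted p = 1.6e-06), KLHDC7B by −2.60 ± 0.69 (adjusted p = 0.0089) and TNFAIP6 by −5.17 ± 1.60 (adjusted p = 0.025). The pseudogene RPL12P16 differed by −4.71 ± 1.68 (adjusted p = 0.045), and its Mock value of 3.64 was 6.37 without Mock 0 h replicate 3. Library composition also differed, with a mitochondrial share of 4.02 and 3.95% in siELMO1 replicates 2 and 3 at 0 h, and its part was not tested.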

How the results depend on the processing

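With a test against a 2-fold change itself (glmTreat) 851 genes were higher and 338 lower, against 1304 and 898. The other tests, scalings and filters gave 1135 to 1596 higher and 897 to 1180 lower genes, and leaving out 1 Mock library gave 1230 to 1312 and 873 to 984. Without one library the changes more positive in siNT than in Mock numbered 2093 to 2311 and those more negative 1875 to 2266, and in siELMO1 1893 to 2152 and 1644 to 1937. With no filter on low counts 1322 genes had a more negative change in siELMO1 than in Mock, against 2209 (the cause was not tested). Genes with changed transcript shares numbered 34 with transcripts of at least 5 CPM, 142 with limma diffSplice (the cause was not tested) and 72 to 98 without one library, against 80. Of 296 named genes none reversed in any alternative, and 114 changed side of the threshold in at least one, 100 of them with glmTreat alone. Beside CIITA, calls of BCL2, TNFRSF6B, AKR1C1, MT-CO2, LAMB1, MMP10, DOCK2, PRPF40B and RPL12P16 were lost in other alternatives, and SULT1B1, ASF1B, MT-CO1 and ITGA5 were called in some. Deviations of same-numbered Mock libraries from their group means correlated at −0.177, −0.0994 and 0.126 over 11033 genes. The highest correlations with a library of another number were 0.153, 0.238 and −0.0465. With 3 libraries a group these values cannot exclude a pairing by number. In the fit with the replicate number as a block 1322 genes were higher and 921 lower, the interactions numbered 2374 and 2567 for siNT and 2215 and 2364 for siELMO1, and 82 genes changed transcript shares. Genes at or under 3 counts in each library of 0 h allow only a lower bound on their rise, and 3 libraries a group limit the precision of every value.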

Other observations

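Some genes that rose lay side by side. Among tested protein-coding genes in chromosome order, 41 runs of at least 3 adjacent genes changed the same way by more than 2-fold (a description with no test, and related neighbours can share reads). The guanylate-binding genes GBP3, GBP1, GBP2, GBP7, GBP4 and GBP5 on chromosome 1 formed a run of 6 over 266 kb (GRCh38), and so did IFIT2, IFIT3, IFIT1B, IFIT1, IFIT5 and SLC16A12 on chromosome 10 over 273 kb. On chromosome 6 the butyrophilin genes BTN3A2, BTN2A2, BTN3A1, BTN3A3 and BTN2A1, whose family takes part in phosphoantigen sensing by gamma delta T cells, rose by 1.23 to 2.51 on the log2 scale together with H4C8. BTN3A3 went from 16.3, 17.3 and 15.9 to 88.3, 92.1 and 103.0 CPM.

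Other runs were shorter. SCO2, TYMP, ODF3B, KLHDC7B and CPT1B on chromosome 22 lay within 54.9 kb, and SCO2, a copper chaperone of cytochrome c oxidase, rose from 3.23, 3.12 and 3.22 to 11.2, 10.5 and 10.5 CPM. The Schlafen genes SLFN5, SLFN11, SLFN12 and SLFN13 on chromosome 17 rose by 1.5 to 1.66, within 206 kb. CFLAR, CASP10 and CASP8 lay together on chromosome 2. Of the runs that fell, HOXA4, HOXA5 and HOXA7 on chromosome 7 spanned 29.4 kb and fell by 1.36 to 1.47, with HOXA7 going from 5.72, 5.33 and 5.03 to 1.96, 2.14 and 1.70 CPM.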
